A study of Mus musculus with 8 samples.

Results

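Inhibitory checkpoint receptors are surface proteins that restrain lymphocyte activation, and the 6 genes described here encode PD-1 (Pdcd1), BTLA (Btla), CD160 (Cd160), TIGIT (Tigit), LAG-3 (Lag3) and TIM-3 (Havcr2). They were chosen by name, with earlier results of these data known, from the 53843 genes annotated by GENCODE M21 on the autosomes and X of GRCm38. Each was taken as its gene body with 10 kb to either side. CpGs entered where every file had at least 5 reads. The 6 regions held 2254 such CpGs, which is 94.0% of the 2399 CpGs that the reference sequence has there.

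The 8 samples were C57BL/6J mouse splenic lymphocytes from animals 6 to 8 weeks old, with cells pooled over animals, with 2 samples for each combination of cell type (B or T) and sex. B cells were CD43-, a selection for cells at rest, and T cells were live-sorted naive cells (CD4+ CD62Lhi CD44lo CD25-). Each group had 1 deposited file, and the labels do not say whether it merged both samples or held 1 of them, so no group had a replicate and a B against T difference was seen once in each sex. Whole-genome bisulfite sequencing was used, in which unmethylated cytosines are converted and the methylation level of a CpG is the share of its reads left unconverted. The 5-methyl and 5-hydroxymethyl forms cannot be told apart in such reads. The protocol covers oxidised and unoxidised libraries, and the files used here were taken as unoxidised because they are named BS. No RNA values were used.

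Checkpoint receptors bind ligands on other cells, and many, but not all, signal through tyrosine motifs in the cytoplasmic tail or through the loss of costimulation. They are best known from T cells exposed to antigen for a long time, in which several of them are displayed together and the cells are called exhausted. Naive T cells have not met their antigen. Methylated CpGs near a gene's start or its enhancers often go with silence of the gene, and short unmethylated stretches often mark regulatory DNA that is accessible in that cell type.

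The mean depth per autosomal CpG was between 14.6 and 17.7 reads in the 4 files, and autosomal methylation was between 79.5% and 80.7%. The sorted cells were checked at promoters (1 kb to either side of the gene start) of marker genes. All 5 B cell marker promoters were lower in B cells and all 6 T cell marker promoters were higher in B cells by the test described below. The B cell markers lay between 8.19% and 32.8% in the B cell files and between 35.9% and 93.6% in the T cell files, and the T cell markers between 67% and 95.5% in the B cell files and between 1.87% and 20% in the T cell files. Of the 2 regulatory T cell markers, Il2ra was higher in B cells by 20.7 points (adjusted p = 0.0456) and Foxp3 was not called (adjusted p = 0.412). None of the 2 NK cell and 3 myeloid promoters passed, although Lyz2 came close at -19.3 points (B minus T), and the CD8 genes Cd8a and Cd8b1 were also higher in B cells, by 20.9 and 50.3 points, with levels between 38.5% and 70.9% in the T cell files. The part of such cells in the results was not tested.

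Whether the checkpoint genes differ between resting B cells and naive T cells was asked first in 1 kb windows. Short stretches that differed, named runs, are shown here. They were picked by their difference, so a large difference in them follows from how they were defined. Some called windows hold no run. A run was defined, after the data had been seen, as 3 or more consecutive CpGs, no more than 500 bp apart, at which B minus T was at least 20 points in the same direction in both sexes. The 6 regions held 19 runs, with 85 of the 2254 CpGs (3.77%), against 1.12% of all 18714703 CpGs. Of these runs, 16 were higher in B cells and 3 lower, while the whole genome held 24238 higher and 18792 lower. For each gene, among the runs in called windows, the run with the largest difference and the run nearest an annotated transcript start are printed with 20 bases to either side, cut at 300 bases. All are read 5′ to 3′ on the plus strand of GRCm38 (RefSeq GRCm38.p6), and capitals mark CpGs, the sites measured.
Pdcd1 first intron, chr1:94052125-94052361: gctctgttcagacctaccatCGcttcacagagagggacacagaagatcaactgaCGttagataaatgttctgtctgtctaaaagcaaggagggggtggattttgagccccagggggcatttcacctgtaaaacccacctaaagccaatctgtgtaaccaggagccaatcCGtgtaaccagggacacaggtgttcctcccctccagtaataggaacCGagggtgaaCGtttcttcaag
Btla intron, chr16:45234521-45234649: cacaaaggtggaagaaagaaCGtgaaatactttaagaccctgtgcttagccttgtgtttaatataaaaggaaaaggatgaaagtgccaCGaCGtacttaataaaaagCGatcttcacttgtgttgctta
Btla upstream, chr16:45222518-45222745: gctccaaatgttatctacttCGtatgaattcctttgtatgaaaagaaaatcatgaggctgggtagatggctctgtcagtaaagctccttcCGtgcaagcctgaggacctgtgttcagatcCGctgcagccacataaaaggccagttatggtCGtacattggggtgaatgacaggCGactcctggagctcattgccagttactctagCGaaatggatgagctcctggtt
Tigit upstream, chr16:43664172-43664471: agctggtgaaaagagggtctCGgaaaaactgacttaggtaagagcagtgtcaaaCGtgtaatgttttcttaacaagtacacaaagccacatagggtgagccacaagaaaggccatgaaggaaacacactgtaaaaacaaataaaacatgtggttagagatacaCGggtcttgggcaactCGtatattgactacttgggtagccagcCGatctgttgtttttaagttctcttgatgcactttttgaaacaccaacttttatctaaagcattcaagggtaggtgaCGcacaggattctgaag
Lag3 downstream, chr6:124900837-124901136: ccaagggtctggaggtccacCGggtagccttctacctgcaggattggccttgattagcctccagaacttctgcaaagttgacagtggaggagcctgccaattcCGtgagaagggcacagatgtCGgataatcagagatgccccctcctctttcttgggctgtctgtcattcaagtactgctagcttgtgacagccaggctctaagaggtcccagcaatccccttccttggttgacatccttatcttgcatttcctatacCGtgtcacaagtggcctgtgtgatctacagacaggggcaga
Havcr2 upstream, chr11:46453605-46453813: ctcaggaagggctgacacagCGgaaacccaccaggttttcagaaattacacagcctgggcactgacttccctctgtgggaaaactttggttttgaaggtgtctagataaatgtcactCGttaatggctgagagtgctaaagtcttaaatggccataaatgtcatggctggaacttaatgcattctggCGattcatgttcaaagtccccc
Havcr2 nearest the start, chr11:46453900-46454008: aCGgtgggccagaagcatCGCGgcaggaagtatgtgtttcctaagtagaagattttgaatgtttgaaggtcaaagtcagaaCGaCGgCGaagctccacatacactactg
Cd160 upstream, in an intron of Pdzk1, chr3:96836306-96836585: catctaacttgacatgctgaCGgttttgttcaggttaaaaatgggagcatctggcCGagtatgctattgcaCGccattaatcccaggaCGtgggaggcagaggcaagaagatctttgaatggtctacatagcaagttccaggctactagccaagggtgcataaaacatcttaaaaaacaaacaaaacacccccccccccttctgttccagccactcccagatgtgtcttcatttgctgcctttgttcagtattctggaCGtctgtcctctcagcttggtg
Cd160 inner start, chr3:96814790-96815089: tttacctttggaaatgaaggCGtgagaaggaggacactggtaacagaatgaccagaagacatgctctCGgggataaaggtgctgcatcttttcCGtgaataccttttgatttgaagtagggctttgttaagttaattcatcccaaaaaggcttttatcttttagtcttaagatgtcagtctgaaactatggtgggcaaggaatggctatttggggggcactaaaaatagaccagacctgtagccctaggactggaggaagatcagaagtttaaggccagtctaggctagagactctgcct

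Short motifs were looked for, on both strands, in the 200 bases at the centre of these 9 runs. The RUNX motif TGTGGT was found in 2 segments, the TCF and LEF motif CTTTGA in 3, the NFAT motif GGAAAA in 2, the ETS motif GAGGAAG in 1 and the AP-1 motif TGANTCA in 0, and no match overlapped a match of another motif. In the central 200 bases of all 2018320 windows tested, these motifs were present in 14.2%, 14.9%, 19.4%, 6.28% and 5.94% of windows, respectively. The matches are letters in the reference and were not tested as binding sites.

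Of the 230 windows of the 6 regions with at least 3 usable CpGs, 19 (8.26%) were called, against 2.08% of the 2018320 windows of the whole genome. Of the 19 calls, 14 (73.7%) were higher in B cells, against 56.1% of all calls in the genome, and 5 were lower. Over all windows tested, 1.16% were called higher in B cells and 0.913% lower. Where 4 levels stand in a row without labels, they are those of B and T cells of females and then of males. Each gene had called windows in its region, from 2 for Tigit and Havcr2 to 5 for Btla. A window was called where its adjusted p was below 0.05 and its mean difference reached 20 percentage points, where the mean is that of the female and the male B minus T differences, from a quasi-binomial model of the reads in all windows with the dispersion moderated by limma. In 8 of the 19 the window overlapped the gene, in 5 it lay upstream and in 6 downstream, and all 19 differed in the same direction in both sexes. In all, 42 of the 230 windows (18.3%, against 5.34% of all windows) had an adjusted p below 0.05, these 19 included. The count depended on the model: limma on log2 ratios called 7 of the 230 (3.04%, against 1.02% of all windows). None of the windows of Pdcd1 or Havcr2 was among these 7. With the dispersion prior taken from all windows 0 were called, here and in the whole genome. Under that prior 65 of the 230 had an unadjusted p under 0.05 in the quasi-binomial fit, but the share over all windows was not counted. The median absolute difference was 3.41 points over the 230 windows and 2.26 points over all windows. At or above 80% in every file were 153 of the 230 windows (66.5%), against 73.2% of all windows. Because every window received the same dispersion, small p-values reflect the spread averaged over windows, while the spread at a single window was not measured.

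**Figure D1:**
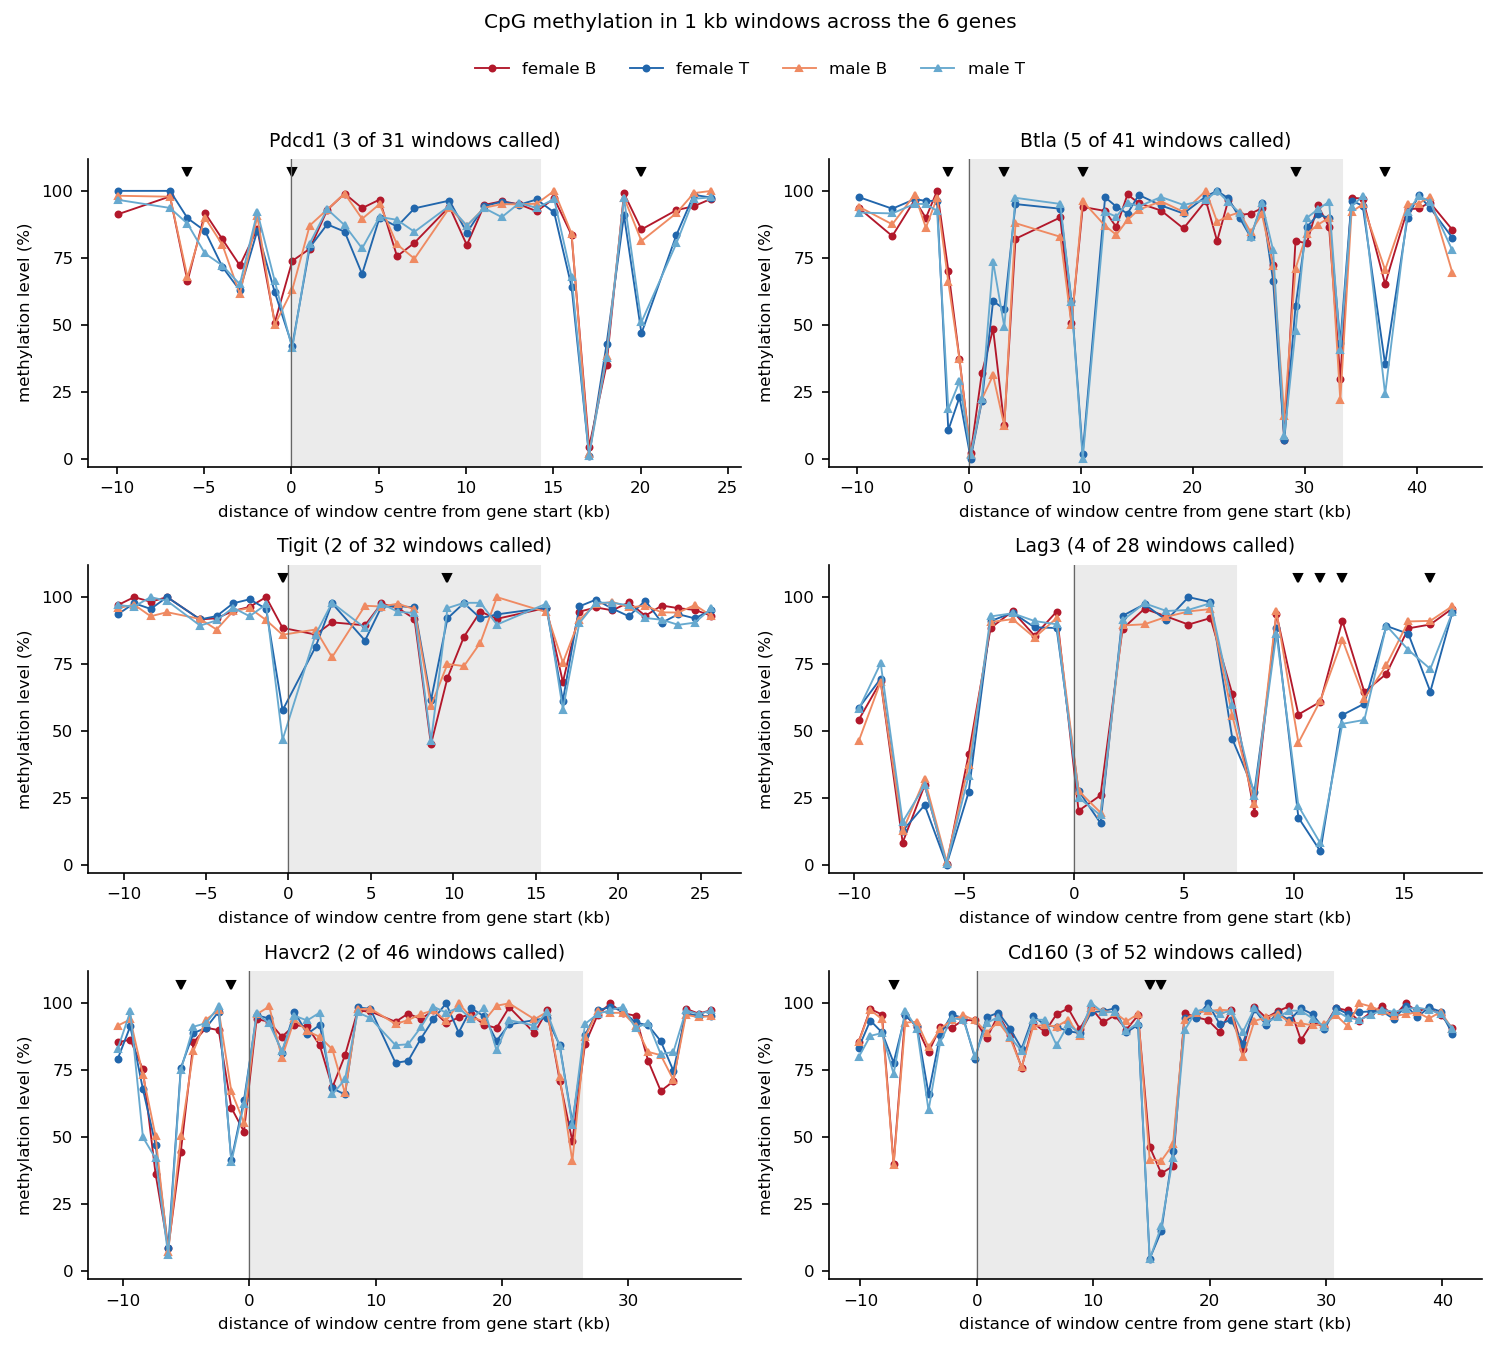
Methylation level (%) of each 1 kb window against the distance of its centre from the gene start (kb, negative upstream), 1 panel per gene and 1 line per file (red and orange, B cells; dark and light blue, T cells); grey marks the gene and triangles mark the called windows. The triangles mark the 19 of 230 windows that were called, and other gaps between the lines are also visible. The Btla window chr16:45226001-45227000 stood at -26.4 points but was not called, as its adjusted p was not below 0.05.

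Pdcd1 encodes PD-1, the receptor of the ligands PD-L1 and PD-L2. The gene lies at chr1:94038305-94052553 on the minus strand, and its start was less methylated in T cells than in B cells. The window over the start, chr1:94052001-94053000 (first exon with its coding and UTR bases, and first intron), held 73.8% in female B, 42.1% in female T, 63.1% in male B and 41.1% in male T. The 95% Wilson intervals of the B and T files did not overlap in either sex (67.2% to 79.5% and 37.0% to 47.5% in females, 57.5% to 68.3% and 35.6% to 46.9% in males), and these intervals, as all others here, cover counting error only. The mean difference was 26.8 points (adjusted p = 1.91e-12).

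Within that window the run in the first intron, 4 CpGs over 197 bp, stood at 84.4% in female B, 12.9% in female T, 69.9% in male B and 19.8% in male T. The next window upstream went the other way without reaching 20 points: chr1:94053001-94054000 held 50.8%, 62.1%, 50% and 66.2% in B and T cells of females, then of males (adjusted p = 0.00598). Both windows overlap the promoter of 2 kb, whose levels were 79.9%, 60.8%, 71.7% and 61.6% in the same order. The promoter difference of 14.6 points had an adjusted p of 0.0437 but did not reach 20 points, and it was called with 500 bp to either side of the start (25.5 points).

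The flanks of Pdcd1 held the other called windows. In the downstream flank, chr1:94032001-94033000 held 85.6% in female B, 46.8% in female T, 81.3% in male B and 51.0% in male T (34.6 points, adjusted p = 2.91e-20), and 7 CpGs of it formed a run at 80%, 23.3%, 75.7% and 21.4%. This window lies 5305 bp from Pdcd1 and 3667 bp from Neu4, a sialidase gene, so it is nearer to Neu4. Upstream, chr1:94058001-94059000 was lower in B cells, at 66.2%, 89.8%, 67.8% and 87.7% (-21.8 points, adjusted p = 0.000294). Between them, a window of 28 CpGs in the downstream flank (chr1:94035001-94036000) was near 0 in every file, between 0.96% and 4.32%.

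Btla and Cd160 encode receptors that share the ligand HVEM, the product of Tnfrsf14. BTLA is carried by both B and T cells, and CD160 is held on the membrane by a lipid anchor and is best known from NK cells and cytotoxic T cells. The NK cell marker promoters Ncr1 and Klrb1c lay between 78.7% and 88.9% in every file. Btla had the most called windows of the 6 genes, 5 of 41 (12.2%), and the largest difference. By share of windows the Lag3 region stood higher, at 4 of 28 (14.3%), all of them in the downstream flank towards Cd4 and none in the gene.

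The start of Btla (gene at chr16:45224315-45257670, plus strand) was unmethylated in both cell types. Its start window, chr16:45224001-45225000, held 1.90% in female B, 0% in female T (0 of 160 reads, which allows up to 1.88%), 1.53% in male B and 1.31% in male T. The 200 bases before the start, shown because they stayed unmethylated in every file, hold 3 CpGs, read 31 to 40 times in all per file.
Btla before the start, chr16:45224115-45224314: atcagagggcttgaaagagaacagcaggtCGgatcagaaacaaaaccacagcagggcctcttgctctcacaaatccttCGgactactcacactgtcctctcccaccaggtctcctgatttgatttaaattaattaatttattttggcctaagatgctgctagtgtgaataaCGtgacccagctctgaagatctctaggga
None of the 40, 38 and 31 reads in female B, female T and male B was methylated, which allows levels of up to 7.5%, 7.89% and 9.68%, and the male T level was 2.86%. Over the whole promoter, the levels were 13.5%, 3.62%, 10.3% and 4.76%, and the difference of 7.71 points was not called (adjusted p = 0.11).

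Differences at Btla lay around that start and not on it. Upstream, centred at -1.81 kb from the start, chr16:45222001-45223000 held 70.2% in female B, 10.6% in female T, 66% in male B and 18.5% in male T (53.6 points, adjusted p = 2.03e-26). Its run of 6 CpGs held none of 131 methylated reads in female T, which allows up to 2.29%, and 1.06% in male T, against 64.0% in female B and 55.4% in male B. Inside the gene, 3.19 kb past the start, the direction was opposite: chr16:45227001-45228000, with 3 CpGs in an intron, held 12.5%, 55.8%, 12.2% and 49.3% in B and T cells of females, then of males (-40.2 points, adjusted p = 2.04e-06).

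The intronic window at 10.2 kb from the start separated the cell types almost completely. At chr16:45234001-45235000, 4 CpGs within 89 bp held 94.0% in female B (50 reads), 1.89% in female T (53 reads), 96.2% in male B (26 reads) and 0% in male T (42 reads, which allows up to 7.14%). The mean difference of 94.1 points was the largest of the 230 windows (adjusted p = 7.34e-31). Single CpGs lay between 83.3% and 100% in the B cell files and between 0% and 7.69% in the T cell files. This window is the whole of the run printed above as the Btla intron.

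A pair of further windows of Btla was higher in B cells. The intronic window chr16:45253001-45254000 held 81.4%, 56.9%, 71% and 47.8% in B and T cells of females, then of males (23.8 points, adjusted p = 0.0197). Its call was the weakest by adjusted p, though not by difference, and the one lost most often under other settings. Downstream, chr16:45261001-45262000 held 65.2%, 35.2%, 70.5% and 24.1% (38.2 points, adjusted p = 2.08e-06). A window next to the first of these, chr16:45252001-45253000, was low in every file, between 6.85% and 15.9%.

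Cd160 (chr3:96798763-96829351, minus strand) was called at an inner start, while the promoter at its outermost start was not called. That promoter was highly methylated everywhere, at 90.1% in female B, 91.0% in female T, 91.2% in male B and 89.0% in male T, a difference of 0.68 points. With 500 bp to either side of that start the difference was 15.9 points, and it was not called either. A second annotated transcript starts at chr3:96814521, within the gene, and the 2 kb around it held 59.4%, 28.3%, 59.9% and 24.1% in the same order. That difference of 33.5 points (adjusted p = 1.53e-05) was found when every annotated transcript start was tested, a setting added after the data had been seen, in which 1.59% of 91920 starts were called. Of the 6 genes, 2 had a called start then, Tigit and Cd160. This is a count of genes while the share is of starts, and a gene with several starts had more chances of a call.

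The 2 windows at the inner start were called on their own. The first, chr3:96814001-96815000 (UTR and intron), held 46.4% in female B, 4.60% in female T, 41.6% in male B and 4.39% in male T (39.5 points, adjusted p = 2.63e-30). Next to it, chr3:96813001-96814000 held 36.5%, 15.0%, 41.2% and 16.8% (22.9 points, adjusted p = 1.36e-18). In both, the T cell files were low and the B cell files intermediate, and the Wilson intervals of B and T files did not overlap. The run printed above under the name of the Cd160 inner start does not hold that start. It lies in an intron, with its centre 471.5 bp from the start, and held 81.7%, 33.3%, 89.5% and 31.3%.

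Upstream of Cd160, chr3:96836001-96837000 was lower in B cells, at 40.0% in female B, 77.9% in female T, 39.5% in male B and 73.7% in male T (-36.1 points, adjusted p = 3.64e-22). The window lies in an intron of Pdzk1, which encodes a scaffold protein, and 6650 bp from Cd160. Its run of 5 CpGs, printed above, held 5.81%, 65.3%, 11.7% and 68.1%.

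**Figure D2:**
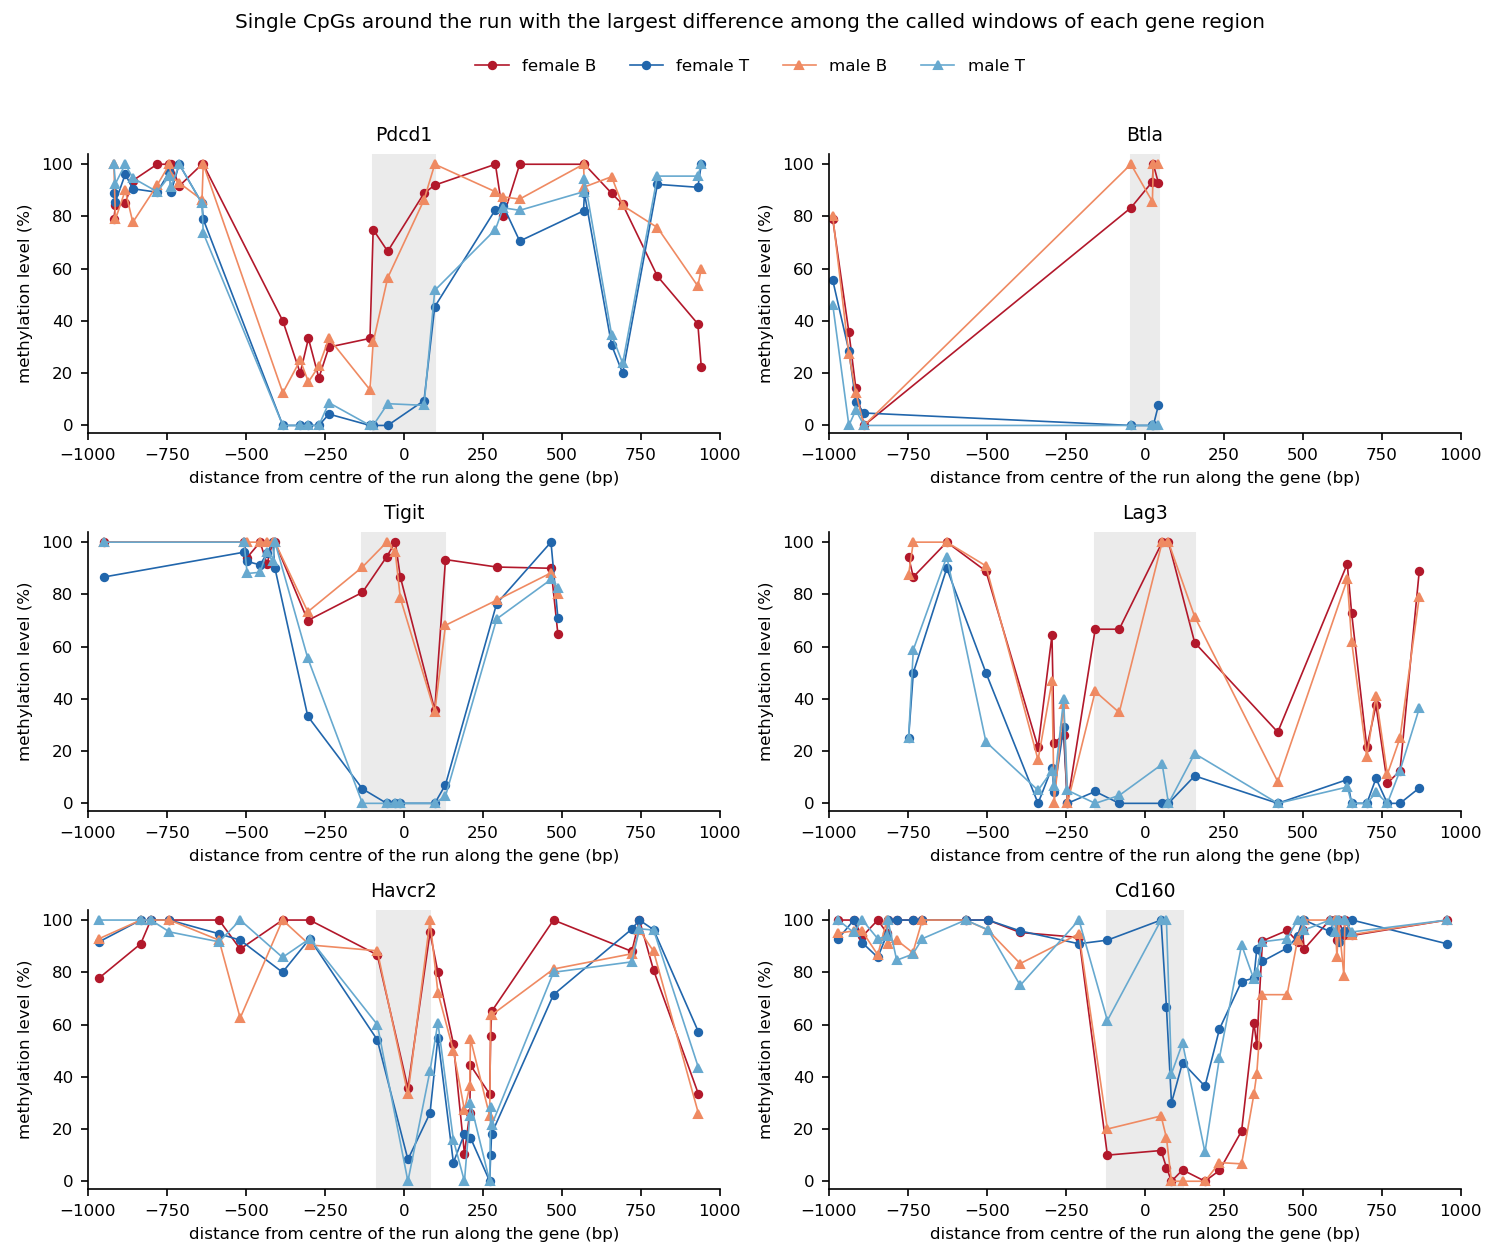
Methylation level (%) of single CpGs within 1 kb of the centre of the run with the largest difference among those in called windows of each gene region, against the distance from the centre along the gene (bp); the run is grey and each line is 1 file. At Btla the 4 CpGs of the run stood at 83.3% or above in both B cell files and at 7.69% or below in both T cell files.

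Tigit encodes a receptor that competes with the activating receptor CD226 for CD155 and related nectin proteins. Its start was highly methylated in B cells and partly methylated in T cells, and its promoter was the only called promoter of the 6 genes. The promoter (gene at chr16:43648867-43664146, minus strand) held 85.8% in female B, 61.9% in female T, 85.7% in male B and 49.6% in male T, with Wilson intervals of 81.3% to 89.4%, 56.4% to 67.1%, 81.2% to 89.2% and 44.7% to 54.5%. The mean difference was 30 points (adjusted p = 0.00146), and 0.917% of the 21055 promoters tested were called. With 500 bp to either side of the start the difference was 50.5 points and was called too. Females differed by 24.0 points and males by 36.0, and with any 1 file left out the difference stayed between 23.9 and 36.1 points but the call was lost, while calls over all promoters fell from 193 to between 35 and 53.

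The difference at Tigit was concentrated in a short stretch just upstream of the start. The run of 6 CpGs, 265 bp long and centred 178 bp from the start, held 82.4% in female B, 2.13% in female T, 79.0% in male B and 0.595% in male T. All single CpGs were at or below 7.14% in the T cell files and at or above 35% in the B cell files. The window that holds the run, chr16:43664001-43665000, stood at 88.5%, 57.7%, 85.9% and 46.7% (35 points, adjusted p = 2.31e-27).

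A second window of Tigit, in an intron at 9.65 kb from the start, was lower in B cells: chr16:43654001-43655000 held 69.8%, 92.0%, 75.0% and 95.9% (-21.6 points, adjusted p = 0.00062). Most of the Tigit region was methylated, with 26 of its 32 windows at or above 80% in every file, which is 81.2% against 73.2% of all windows. The intronic window next to the second one, chr16:43655001-43656000, was not called and lay between 45% and 61.4%, and chr16:43647001-43648000 in the downstream flank, not called either, lay between 58% and 75.5%. Among 19170 other promoters with 100 or more reads in every file, the 4 levels most like those of Tigit were at C1qtnf3, Fxyd4 and Tex50, at root mean square differences of 4.49, 4.96 and 5.90 points over the 4 files.

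Lag3 encodes a receptor related to CD4 that binds MHC class II molecules, and the Cd4 gene is its neighbour on chromosome 6. The promoter of Lag3 (gene at chr6:124904361-124911705, minus strand) did not differ detectably, at 59.4% in female B, 57.7% in female T, 54.5% in male B and 54.9% in male T, a difference of 0.64 points (adjusted p = 0.975), which turned to -3.87 points, not called either, with 500 bp to either side. No window in the gene was called. All 4 called windows lay in the downstream flank, between the gene and Cd4, and all were higher in B cells.

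Of the 4, 3 adjoin each other and lie 2361, 3361 and 4361 bp from Lag3. The middle one, chr6:124900001-124901000, held 60.9% in female B, 5.04% in female T, 61.4% in male B and 8.00% in male T (54.6 points, adjusted p = 8.61e-51). On the gene side of it, chr6:124901001-124902000 held 56.1%, 17.6%, 45.6% and 22.0% (31.1 points, adjusted p = 2.99e-13). On the Cd4 side, chr6:124899001-124900000 held 91.2%, 56.0%, 84.1% and 52.7% (33.3 points, adjusted p = 7.52e-12).

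The other, chr6:124895001-124896000, held 89.8%, 64.7%, 91.1% and 73.2% (21.5 points, adjusted p = 7.86e-07) and lies 8361 bp from Lag3 and 6780 bp from the start of Cd4, so it is nearer to Cd4. The Cd4 promoter, a T cell marker above, held 73.3%, 20%, 70.2% and 14.9%. Which of the genes these windows belong to was not tested.

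Between the called windows of the Lag3 flank, a run of 6 CpGs within 22 bp was lower in B cells, at 38.1%, 87.5%, 36.8% and 88.1%, while its whole window was at -16.3 points and not called. On the other side of the gene, a run of 6 CpGs in an intron of Ptms, the parathymosin gene, was higher in B cells, at 71.3%, 11.6%, 72.8% and 16%, in a window that was not called either. The window centred at -5.80 kb from the start, over Ptms, held 125 CpGs and was between 0.0884% and 1.21% in every file. Lag3 lies in the region with the most CpGs per kb of the 6, 20.8, against 5.68 at Btla.

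Havcr2 encodes TIM-3, a receptor of galectin-9 and phosphatidylserine that is known from T cells making interferon gamma and from myeloid cells. Neither its promoter nor any window of the gene body (chr11:46454935-46481255, plus strand) was called, and its called windows both lay upstream, with opposite directions. The promoter held 68.3% in female B, 74.2% in female T, 71.7% in male B and 70.4% in male T, a difference of -2.27 points (adjusted p = 0.839), and the signs differed between the sexes. With 500 bp to either side of the start it was -10.6 points and was not called.

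The nearer window, chr11:46453001-46454000, ends 935 bp before the start and held 61% in female B, 41.4% in female T, 67.1% in male B and 40.6% in male T (23.1 points, adjusted p = 1.05e-07). Its 2 runs, printed above, held 76.0%, 29.6%, 76.5% and 34.8%, and 50%, 10.8%, 51.1% and 19.2%. The farther one, chr11:46449001-46450000, was lower in B cells, at 44.6%, 75.9%, 50.4% and 75.1% (-28.0 points, adjusted p = 2.18e-17), and lies 4935 bp from Havcr2 and 6280 bp from Med7, a Mediator subunit gene. Beside it, chr11:46448001-46449000 was between 5.96% and 8.55% in every file.

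In the gene body of Havcr2, 3 CpGs over 329 bp about 12.0 kb from the start formed a run at 94.4%, 26.7%, 97.2% and 43.6% in B and T cells of females, then of males. Neither of the windows that hold them was called.

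**Figure D3:**
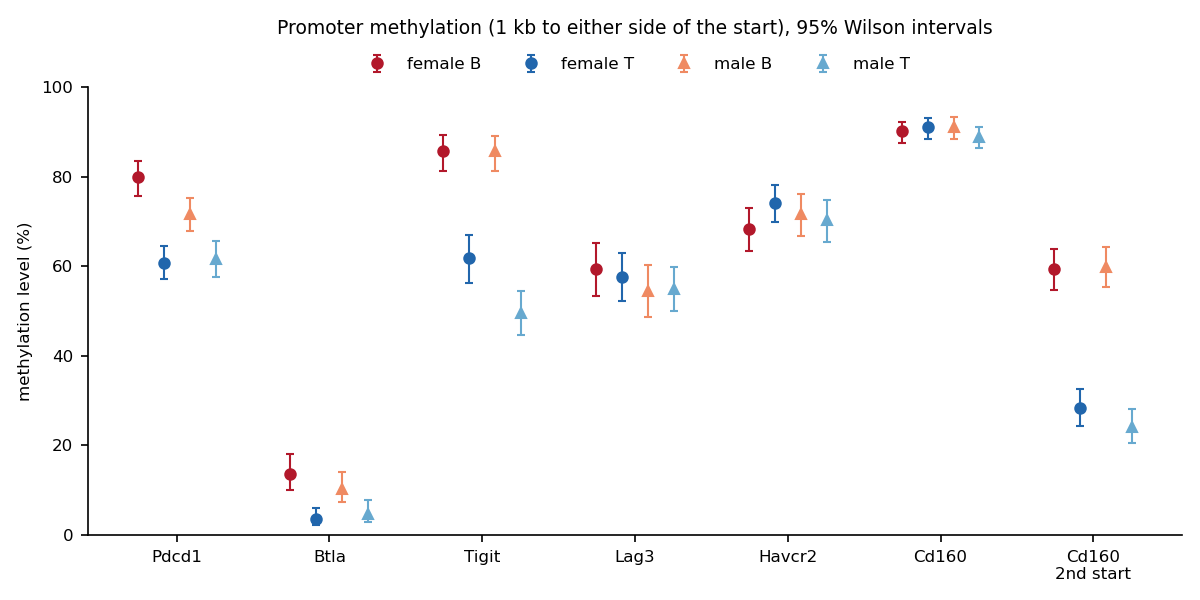
Promoter methylation level (%) of the 6 genes and of the 2 kb around the second annotated transcript start of Cd160, 1 point per file with its 95% Wilson interval. Within each sex, the B cell file lies above the T cell file with no overlap of intervals at Pdcd1, Tigit and the second start of Cd160, and the 4 files lie together at Lag3, Havcr2 and the outer start of Cd160.

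Taken over whole regions, the differences were small. B minus T, pooled over all reads of a region, was 3.71 ± 1.21 points at Pdcd1, 1.78 ± 1.42 at Btla, 1.00 ± 0.711 at Cd160, 2.69 ± 1.00 at Tigit, 4.13 ± 1.08 at Lag3 and -3.05 ± 1.00 at Havcr2, where the error is the 95% counting error. This error is that of the mean over both sexes and leaves out the gap between them, which was widest at Lag3, with 7.41 points in the female pair and 0.859 in the male pair, followed by Tigit (0.955 and 4.43) and Btla (3.37 and 0.184). Without flanks the sign turned at Btla (-0.922), Tigit (-2.29) and Havcr2 (0.397). With a minimum of 10 reads it turned at Btla (-0.955). With the mean of CpG levels the value was 2.37 at Lag3 and -1.63 at Havcr2. Levels ranged from 42.9% to 50.3% over the 4 files at Lag3 and from 86.6% to 91.1% at Tigit, the lowest and the highest of the 6 by their means. Among the regions of 21597 protein-coding genes, the difference at Lag3 was at percentile 95.2, that at Pdcd1 at 93.7, and that at Havcr2 at 4.42, by the mean of both sexes, given as a description with no test. Parts of a region differed in direction. At Lag3, the downstream flank differed by 8.74 points and the introns by -3.36, at Tigit the upstream flank by 9.31 and the introns by -3.44, and at Havcr2 the upstream flank by -8.00 and the introns by 2.90.

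No difference between female and male files was called in these regions. None of the 230 windows was called between the sexes, against 0.00103% of 1950708 autosomal windows, and 11 had an unadjusted p under 0.05 in the quasi-binomial fit moderated by limma. Limma on log2 ratios and Fisher's exact test within each pair also called 0, with 10 and 2 windows at an unadjusted p under 0.05. The largest mean difference between the sexes was 10.4 points. The interaction of cell type and sex could not be tested, because no group had a replicate. That term was the residual of the model, from which the spread itself was taken.

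**Figure D4:**
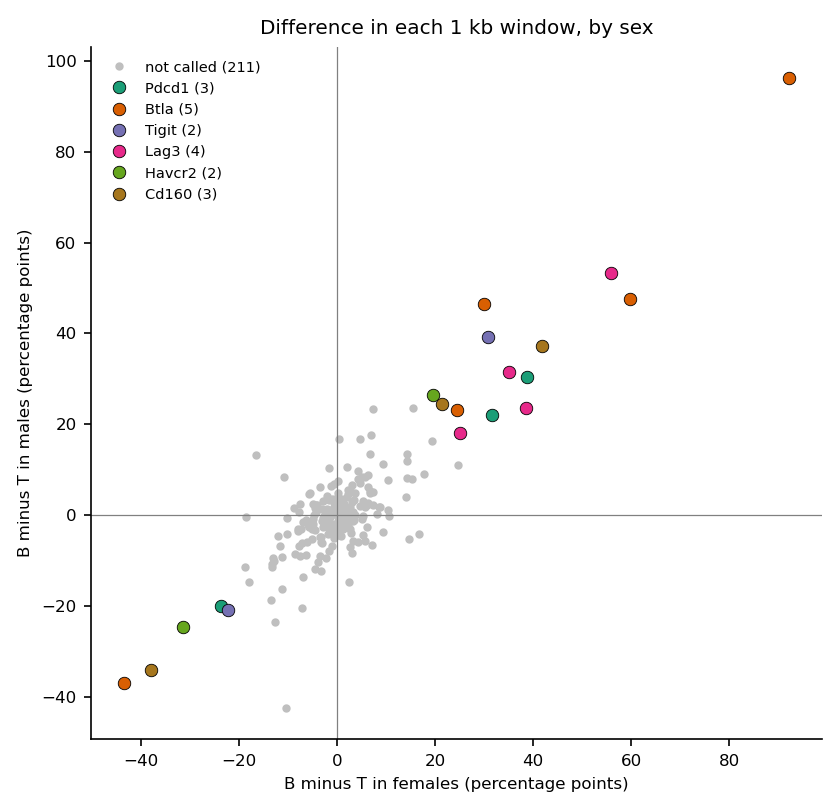
B minus T difference (percentage points) in males against that in females for each of the 230 windows of the 6 regions; called windows are coloured by gene and the other 211 are grey. All 19 called windows lie in the lower left or upper right, with the Btla intron at 92.1 points in females and 96.2 in males.

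Ligands, related receptors, signalling partners and transcription factors of the checkpoint receptors were compared at their promoters. Of 41 such genes, 3 were called, all higher in B cells and all receptors, beside the 0.917% of all promoters. Cd226, the activating receptor that shares its ligands with TIGIT, held 76.7%, 28.3%, 80% and 27.5% in B and T cells of females, then of males, on only 3 CpGs (50.5 points, adjusted p = 0.0377). Cd96, another receptor of nectin proteins, held 30.4%, 8.38%, 32.2% and 7.21% (23.5 points, adjusted p = 0.00046). Cd5, an inhibitory receptor of T cells that also stands in the T cell marker list, held 70.4%, 12.6%, 70.3% and 14.8% (56.6 points, adjusted p = 7.21e-06). With any 1 file left out, Cd226 and Cd96 lost their calls and Cd5 kept its own, and with 500 bp to either side Cd96 was at 3.90 points.

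None of the 12 ligand genes was called, and neither were the 5 signalling genes and the 12 transcription factors linked with exhaustion. Of the PD-1 ligand genes, Cd274 was between 3.24% and 5.13% in every file and Pdcd1lg2 between 88.8% and 96.5%, and the promoter of Tnfrsf14, the HVEM gene, between 34.1% and 41.3%. Ceacam1, proposed as a TIM-3 ligand, was lower in B cells at -14.6 points (adjusted p = 0.0445), short of 20 points. Of the transcription factors, 9 of 12 were at or below 20% in every file, as were 52.7% of all promoters. Tcf7, which encodes TCF-1, held 10.6%, 0.455%, 11.8% and 0.499% (10.7 points, adjusted p = 7.93e-06), also short of 20 points. Tox was higher in B cells by 7.88 points (adjusted p = 0.0369 by the same promoter fit), short of 20 points too.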

How the data were processed

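Mouse splenic B and naive T cells were profiled by whole-genome bisulfite sequencing. Per the deposited files, each CpG has a methylation fraction and a read count made by the authors. The submitters' processing notes name Trim Galore, FastQC, Bismark 0.13.1 and mm10, with no roles. Duplicate removal is not given in the sources used here. If duplicates were kept, reads are not independent molecules, and counting errors are larger than stated. Positions in the files count from 0 and were raised by 1, after which 100% lay on the C of a reference CpG.

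Methylated reads were recovered as fraction times count, rounded, and 18714703 CpGs passed a minimum of 5 reads per file. Groups followed the sample labels. The reads of 1 kb windows with at least 3 CpGs (median 106 reads per file) and of promoters were fitted by a quasi-binomial model with cell type and sex, leaving 1 residual degree of freedom, with dispersion moderated by squeezeVar of limma 3.58.1 (R 4.3.3), its prior taken from windows with 5 or more expected reads of each kind. The fit was tested on simulated data. P-values were adjusted by Benjamini-Hochberg over all features. Those of windows rest on the spread between files averaged over windows, and those of promoters also draw on the promoter's own spread. None of them measures the spread between animals. For windows the prior degrees of freedom were infinite at a dispersion of 1.31.

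The named items are all 6 genes, every called window (no gene had more than 6), every called promoter of the 41 partner genes, and the 3 promoters most like each called one. Ceacam1, Tcf7, Tox, Cd274, Pdcd1lg2 and Tnfrsf14, the runs, and the windows near the called ones were named after their values were seen. The genes and lists were chosen with earlier results of these data known. RefSeq promoter sequences were held for 5 of the 6 genes and were used for Btla. The other sequences were read from the GRCm38.p6 genome.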

Additional observations from a re-analysis of the deposited data

How the results depend on the processing

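The called windows kept their direction where their levels were recomputed, with a minimum of 10 reads or with 1 file left out. The Btla windows starting at 45234001 and 45261001 had fewer than 3 usable CpGs with a minimum of 10 reads. They were not tested at that setting. Other alternatives on the 1 kb windows reuse the same levels, so the direction could not change. A threshold of 10 points or leaving out the flanks could not lose a call either. With all of these included, the call was kept in 186 of 234 comparisons. The 19 calls became 32 of 327 with windows of 500 bp (2.74% of all windows called), 8 of 128 with windows of 2 kb (1.4%), 35 at a threshold of 10 points (4.19%), 11 at 30 points (1.04%), 8 of 120 without flanks (2.08%) and 7 by limma on log2 ratios (1.02%). With the dispersion prior from all windows 0 were called, as in the whole genome. Of the 230, 65 had an unadjusted p under 0.05 in that fit, but the share over all windows was not counted. With 1 file left out, the smallest difference among the called windows was 17.3 points, at the Lag3 window starting at 124895001 without the female T file. Windows of Btla (start 45253001), Tigit (43654001) and Havcr2 (46453001) also came below 20 points in size. Their smallest values were 18.6 and -19.0 points without the female B file, and 19.98 points without the male B file, respectively. The count between the sexes was 0 under every alternative run. At promoters, the 1 call among the genes became 2 with 500 bp to either side (1.31% of all promoters called) and 2 at 10 points (2.02%). With every transcript start, 2 genes had a called start (1.59% of all starts). The call at the Tigit promoter was lost with any 1 file left out. The 3 partner genes became 5 at 10 points (2.02% of all promoters called), 4 of them higher in B cells. With 500 bp to either side they became 2 of 40 (1.31%), of which 1 was higher in B cells. With any 1 file left out, Cd226 and Cd96 lost their calls. Cd96 lost its call with 500 bp to either side (3.90 points). With the mean of CpG levels, region differences were 4.98 at Pdcd1, 2.37 at Lag3 and -1.63 at Havcr2. With a minimum of 10 reads they were -0.955 at Btla and 5.47 at Lag3. Without flanks they were -0.922 at Btla, -2.29 at Tigit, 0.397 at Havcr2 and 2.46 at Cd160, so the sign at Btla, Tigit and Havcr2 depended on the region. The cause was not tested. No paired analysis was possible because the groups share no replicate numbers, but the sex term and Fisher's exact test compared B with T files within each sex. At about 15 reads per CpG, windows with few CpGs have wide intervals, and with 1 file per group the spread between animals could not be measured.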
